A study of Rattus norvegicus with 8 samples.

Results

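The genes described here are 39 genes of the hypoxia response and of glycolysis in fetal rat pancreatic islets. They were taken as a fixed list: each gene was read from the probe set that the platform annotation gives to it alone, and from the brightest where a gene had several. All 39 were measured, out of 14506 genes named in this way on the array. The list holds 13 glycolytic enzymes, 14 targets of hypoxia-inducible factor (HIF) outside glycolysis, 5 HIF subunits or regulators, 3 transporters of glucose or lactate and 4 genes that control the flow through glycolysis.

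The islets came from Sprague-Dawley rat fetuses at embryonic day 19, from 4 litters whose dams had IUGR (intrauterine growth restriction) surgery and 4 litters whose dams had a sham operation, both on embryonic day 18. The labels do not describe the IUGR operation further. Islets of all fetuses in a litter were pooled, so that each of the 8 arrays stands for 1 litter of 1 dam, and the IUGR and sham litters are called replicates 1 to 4 of their group. Values are log2 expression made by RMA, a method that corrects background, normalises between arrays and summarises the probes of a gene. The spread tested is that between litters.

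When oxygen is plentiful, the prolyl hydroxylases encoded by the Egln genes mark the HIF alpha subunits, and the Vhl protein then directs them to degradation. When oxygen is scarce the alpha subunits persist, pair with Arnt and bind short DNA motifs near genes that move the cell toward glycolysis, spare mitochondrial respiration and adapt the matrix and the endoplasmic reticulum. In mature beta cells glucose carbon goes mainly to the mitochondria, and lactate dehydrogenase A, the low-Km hexokinases and lactate transporters are normally kept low. HIF alpha subunits are regulated mostly as proteins, which an array does not measure.

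The arrays differed in ways that bear on these genes. The interquartile range over genes was 3.53 to 3.62 in the IUGR litters and 3.06 to 3.63 in the sham litters, where only replicate 1 reached the IUGR range. Marker genes of endocrine (hormone) cells were present at a list mean of 10.98 to 11.49 in IUGR and 10.55 to 12.13 in sham litters, the highest being sham replicate 4. Liver markers, 20 of 20 higher in IUGR, had a list mean of 11.37 to 12.82 in IUGR and 9.05 to 11.59 in sham litters. Acinar markers, 22 of 22 higher, averaged 10.97 to 11.92 in IUGR and 9.27 to 10.87 in sham litters, and duct markers, 12 of 13 higher, averaged 10.86 to 11.15 and 9.79 to 10.44. Erythroid markers were lower in 13 of 13 (9.84 to 11.16 in IUGR, 10.71 to 11.56 in sham), as were macrophage markers in 18 of 19 (8.87 to 9.84 against 9.70 to 10.38), mesenchyme markers in 17 of 19 (10.47 to 11.45 against 11.41 to 12.08) and endothelial markers in 16 of 16 (10.20 to 10.83 against 10.53 to 11.26). In such bulk islets, fewer cells of a type and less RNA per cell cannot be told apart, and the part of these cell types in the results on hypoxia genes was not tested.

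Islets were compared to see whether transcripts of the hypoxia response and glycolysis differed after IUGR surgery. Of the 39 genes, 34 had a higher mean in IUGR and 5 a lower one, with a median difference of 0.38 on the log2 scale. Over all 14506 genes 55.1% were higher, with a median of 0.04, and among the 4118 genes with a mean above 10 it was 72.8%, with a median of 0.13. No member passed a limma adjusted p of 0.05 over all genes, which 0.234% of all genes passed as higher and 0.0138% as lower. The lowest limma adjusted p of a member was 0.0724, for Pdk1. At an unadjusted p under 0.05, 20 members were higher, against 15.4% of all genes (18.3% of genes with a mean above 10), and 1 was lower, against 10.7% of all genes. Of those at an unadjusted p under 0.05, 95.2% of the members and 58.9% of all genes were thus higher. That share was 88.9% of members and 45.9% of all genes after quantile normalization, and 81.8% of members and 13.4% of all genes after median centring.

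All 4 IUGR litters lay above all 4 sham litters for 11 members, where 10% of all genes and 14.6% of genes with a mean above 10 did so. These were Vhl, Slc2a1, Hk2, Gpi, Ldha, Pdk1, Fbp1, Bnip3, Ndrg1, Ero1a and Gbe1. For Bnip3l alone all IUGR litters lay below all sham litters, as for 5.45% of all genes. The largest differences were those of Gbe1 (1.19), Fbp1 (1.08), Slc16a3 (1.04), Ndrg1 (0.95) and Pdk1 (0.95), or 1.93-fold to 2.28-fold on the linear scale. The direction depended on scaling for part of the list: 32 of 39 were higher after quantile normalization (49.4% of all genes) and 26 of 39 after median centring (28.1% of all genes), which moved the median of all genes from 0.04 to -0.19. Relative to the median of all genes, the members stood higher by 0.34 as deposited and by 0.27 after quantile normalization. Median centring shifts each array by 1 constant, so the 0.34 after it was fixed in advance. IUGR lay above sham without overlap for 7 of 39 members after quantile normalization, against 7.24% of all genes. After median centring it did so for 2 of 39, against 2.64% of all genes.

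**Figure D1:**
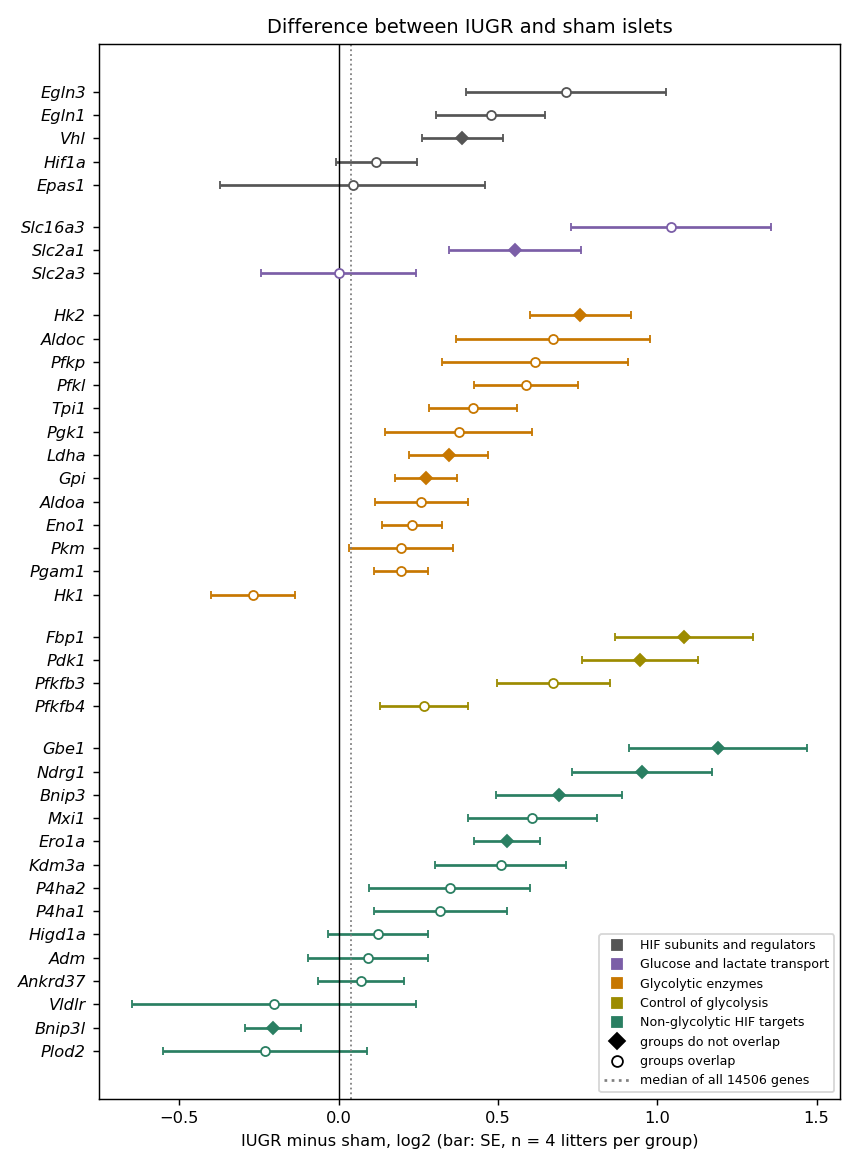
Difference between IUGR and sham islets for each of the 39 genes, in log2 units on the x axis, with the SE as a bar (n = 4 litters per group) and genes grouped by role. Filled diamonds are the 12 genes whose groups do not overlap, and the dotted line is the median of all 14506 genes (0.04); most points lie to its right, with Hk1, Slc2a3, Vldlr, Bnip3l and Plod2 to its left.

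The start regions of these genes were searched for the core letters of HIF response elements, ACGTG and GCGTG, on both strands in the 250 bases before the annotated start (RefSeq, build GRCr8). The promoter table held 34 of the 39 members, without Pgk1, Slc2a3, Bnip3l, Ndrg1 and Ero1a. At least 1 match stood in 24 of the 34 (70.6%), against 39.6% of all 27457 genes of the table. Such letters are common in GC-rich sequence: of start regions with over 60% G and C, 22 of 26 from members and 63.2% of all held a match. Matches stood before 10 of 11 non-glycolytic HIF targets and 8 of 12 glycolytic enzymes. They stood before 6 of the 9 listed members whose IUGR litters lay above all sham litters, and before 18 of the other 25. The following 6 all hold matches: Slc2a1, Ldha, Pdk1 and Bnip3, which had no overlap between groups, and P4ha2 and Ankrd37, whose groups overlapped. Ankrd37 had a mean of 6.93, among the 30% dimmest genes, where differences can be compressed. Vhl, Hk2 and Gpi, which had no overlap between groups, hold no match and are not printed. Capitals mark matches on either strand, overlapping matches being joined, and each sequence is written 5′ to 3′ on the strand of its gene.
Slc2a1, chr5:138002272-138002521, plus strand: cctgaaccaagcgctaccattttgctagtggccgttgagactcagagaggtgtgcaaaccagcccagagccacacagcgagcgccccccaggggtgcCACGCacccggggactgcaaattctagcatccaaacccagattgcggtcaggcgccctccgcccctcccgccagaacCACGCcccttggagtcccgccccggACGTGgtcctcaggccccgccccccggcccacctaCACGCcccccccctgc
Ldha, chr1:106507842-106508091, plus strand: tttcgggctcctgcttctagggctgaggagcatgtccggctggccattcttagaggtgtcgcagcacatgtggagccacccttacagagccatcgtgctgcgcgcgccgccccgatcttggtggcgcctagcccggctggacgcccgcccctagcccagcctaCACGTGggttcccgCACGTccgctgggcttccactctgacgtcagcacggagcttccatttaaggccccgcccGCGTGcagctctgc
Pdk1, chr3:77113264-77113513, plus strand: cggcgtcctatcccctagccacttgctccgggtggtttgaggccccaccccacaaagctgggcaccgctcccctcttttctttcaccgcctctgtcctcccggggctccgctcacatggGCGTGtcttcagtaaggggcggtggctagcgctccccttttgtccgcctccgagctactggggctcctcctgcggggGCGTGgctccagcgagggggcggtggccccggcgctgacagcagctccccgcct
Bnip3, chr1:203154963-203155212, minus strand: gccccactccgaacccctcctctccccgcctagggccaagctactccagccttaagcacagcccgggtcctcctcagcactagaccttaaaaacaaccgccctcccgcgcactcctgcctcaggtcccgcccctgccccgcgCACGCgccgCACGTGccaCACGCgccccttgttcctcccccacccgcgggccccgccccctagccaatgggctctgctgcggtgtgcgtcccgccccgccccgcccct
P4ha2, chr10:38743644-38743893, plus strand: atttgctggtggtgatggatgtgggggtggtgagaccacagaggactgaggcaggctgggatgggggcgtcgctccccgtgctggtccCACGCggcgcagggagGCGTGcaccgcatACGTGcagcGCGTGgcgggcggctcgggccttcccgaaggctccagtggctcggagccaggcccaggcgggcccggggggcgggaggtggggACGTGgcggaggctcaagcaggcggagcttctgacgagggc
Ankrd37, chr16:53001257-53001506, plus strand: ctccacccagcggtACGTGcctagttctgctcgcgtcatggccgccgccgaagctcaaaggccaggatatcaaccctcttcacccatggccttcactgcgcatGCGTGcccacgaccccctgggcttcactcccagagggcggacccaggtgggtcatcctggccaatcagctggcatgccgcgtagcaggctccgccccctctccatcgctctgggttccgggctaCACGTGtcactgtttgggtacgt
In Ldha, Bnip3 and Ankrd37 matches on both strands overlap as CACGTG, and Ldha holds a further CACGT nearby. A match is a string of letters and says nothing of binding.

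Among the HIF subunits and their regulators, the alpha subunits themselves did not separate the groups. Hif1a, the widely expressed alpha subunit, was 11.66, 11.79, 11.75 and 11.58 in IUGR replicates 1 to 4, against 11.80, 11.62, 11.66 and 11.24 in sham replicates 1 to 4. Its groups overlapped, with a difference of 0.12 ± 0.13 (SE), and only sham replicate 4 stood apart at the low end, without which the difference was 0.0047. Epas1, the alpha subunit known from endothelial and stromal cells, was 10.51, 9.90, 10.16 and 9.89 in IUGR litters, against 9.93, 9.31, 9.66 and 11.40 in sham litters. Here the highest value was that of sham replicate 4, the litter with the highest endothelial list mean (11.26), and the difference of 0.04 ± 0.42 (SE) was 0.49 without it.

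Vhl, whose product is the substrate-binding part of the ubiquitin ligase for HIF alpha, was 10.07, 10.18, 10.05 and 10.37 in IUGR litters, against 9.97, 9.83, 9.84 and 9.47 in sham litters. The groups did not overlap, but their nearest litters were only 0.08 apart, and the difference was 0.39 ± 0.13 (SE; limma adjusted p = 0.136). The hydroxylase genes Egln1 and Egln3 are themselves HIF targets, and Egln3 is strongly so. Egln1 was 10.27, 9.82, 9.89 and 9.85 in IUGR litters, against 9.84, 9.58, 9.39 and 9.11 in sham litters, so that a single pair of litters touched (difference 0.48 ± 0.17). Egln3 was 11.95, 10.72, 11.24 and 10.48 in IUGR litters, against 10.21, 10.51, 10.07 and 10.75 in sham litters. For Egln3 IUGR replicates 1 and 3 stood above every sham litter while replicates 2 and 4 lay within the sham range, and its difference of 0.71 ± 0.31 was 0.43 without IUGR replicate 1.

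Glucose and lactate transporters differed among themselves. Slc2a1, which encodes the glucose transporter typical of the HIF response, was 12.79, 11.94, 12.59 and 12.12 in IUGR litters, against 11.91, 11.93, 11.93 and 11.46 in sham litters. The groups did not overlap, although IUGR replicate 2 exceeded the highest sham litter by only 0.0019, and the difference was 0.55 ± 0.21 (SE; limma adjusted p = 0.153). Slc2a3, the high-affinity glucose transporter best known from neurons and also a HIF target, was 10.28, 9.67, 9.96 and 9.43 in IUGR litters, against 10.28, 9.30, 9.89 and 9.88 in sham litters. Its groups overlapped, with equal means of 9.84 in IUGR and 9.84 in sham islets. Slc16a3, the lactate exporter of glycolytic cells, was 9.80, 8.48, 9.91 and 9.63 in IUGR litters, against 8.79, 8.11, 8.35 and 8.40 in sham litters. IUGR replicates 1, 3 and 4 lay above every sham litter and replicate 2 lay among them, with a difference of 1.04 ± 0.31 (SE; limma adjusted p = 0.127). Without IUGR replicate 2 the difference was 1.37 (limma adjusted p = 0.0389). With any other litter left out the limma adjusted p was 0.0571 to 0.264.

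The glycolytic enzymes were higher in 12 of 13 cases, with Hk1 the exception, and in 9 of 13 after median centring. Their median difference was 0.35, and 3 of the 13 had all IUGR litters above all sham litters, as did 10% of all genes and 14.6% of those with a mean above 10. After median centring 0 of the 13 lay above without overlap (2.64% of all genes) and 1 below (1812 of all 14506 genes). After quantile normalization 3 lay above without overlap (7.24% of all genes) and 1 below (1088 of all 14506 genes). Hk2, the hexokinase that HIF induces, was 8.59, 7.90, 8.46 and 8.48 in IUGR litters, against 7.77, 7.46, 7.66 and 7.51 in sham litters. All 4 IUGR litters were above the highest sham litter, by 0.76 ± 0.16 on average (SE; 1.69-fold, limma adjusted p = 0.0794). Hk1, the housekeeping hexokinase, ran from 9.87 to 10.26 in IUGR litters and from 10.13 to 10.56 in sham litters, a difference of -0.27 ± 0.13. The per-litter gap between Hk2 and Hk1 was greater in every IUGR litter than in every sham litter, by 1.03 on the log2 scale (exact permutation p = 0.0286, adjusted p = 0.129 over 9 pairs of related genes).

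Below the hexokinase step, Gpi, glucose phosphate isomerase, was 13.40, 13.16, 13.28 and 13.15 in IUGR litters, against 13.09, 12.99, 13.004 and 12.79 in sham litters. Its groups did not overlap, with a difference of 0.28 ± 0.10 (SE). Pfkl, the liver-type phosphofructokinase, was 11.27, 10.60, 11.05 and 10.91 in IUGR litters, against 10.62, 10.41, 10.36 and 10.10 in sham litters. IUGR replicate 2 and sham replicate 1 touched, and the mean difference was 0.59 ± 0.16. Pfkp, the platelet-type enzyme, differed by 0.62 ± 0.29, but IUGR replicate 1, at 9.87, stood far above the other IUGR litters (8.40 to 8.90) and the difference was 0.33 without it. The aldolase genes behaved likewise: Aldoc, the brain-type enzyme, differed by 0.67 ± 0.30 and by 0.41 without IUGR replicate 1, and Aldoa by 0.26 ± 0.15 and by 0.13 without it.

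In the lower part of glycolysis, Tpi1, triose phosphate isomerase, was 13.16, 12.75, 12.98 and 12.90 in IUGR litters, against 12.75, 12.63, 12.50 and 12.23 in sham litters. Sham replicate 1 reached the level of IUGR replicate 2, and the difference was 0.42 ± 0.14 (SE). Eno1, enolase, was 13.36, 13.17, 13.30 and 13.31 in IUGR litters, against 13.18, 13.11, 13.07 and 12.86 in sham litters, with the same pair of litters touching and a difference of 0.23 ± 0.09. Ldha, which turns pyruvate to lactate, was 13.89, 13.77, 13.89 and 13.77 in IUGR litters, against 13.69, 13.57, 13.54 and 13.15 in sham litters. Its groups did not overlap, with a difference of 0.35 ± 0.12 (limma adjusted p = 0.145). Sham replicate 4 was the lowest Ldha litter and without it the difference was 0.23.

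Ldha, Gpi, Eno1 and Pgam1 had means over 13, within about 1 log2 unit of the array maxima, which ran from 14.15 to 14.44, where differences can be compressed. A dimmer probe set of Ldha, with a mean of 12.71, gave 0.55 ± 0.17 (SE). Pgam1, phosphoglycerate mutase, differed by 0.20 ± 0.08, and its other probe set, at a mean of 7.69, by 0.07 ± 0.08. The 3 probe sets of Eno1 gave 0.20 to 0.23 and the 3 of Pkm 0.19 to 0.20. Pkm, pyruvate kinase, and Pgk1, phosphoglycerate kinase, overlapped between groups, with differences of 0.20 ± 0.16 and 0.38 ± 0.23. For both, sham replicate 4 was the odd litter, highest of the sham litters for Pkm (12.39) and lowest for Pgk1 (11.11), so that without it Pkm differed by 0.30 and Pgk1 by 0.13. Pkm differed by 0.07 without IUGR replicate 1, its highest litter (12.66), and by 0.30 without IUGR replicate 4. Without the 4 bright enzymes the median of the enzymes was 0.42.

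**Figure D2:**
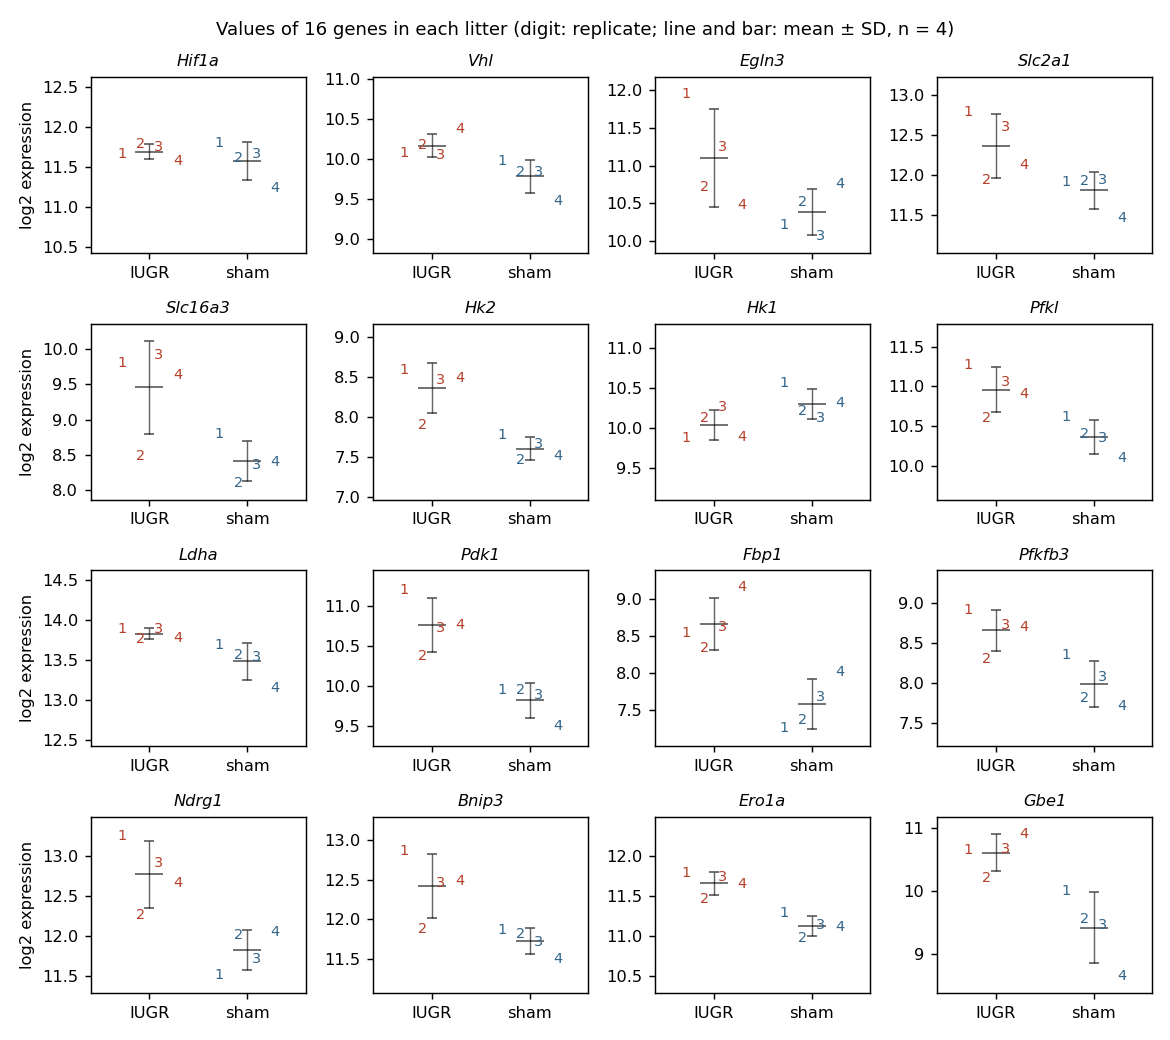
Log2 expression of 16 of the genes in each litter, IUGR left and sham right in each panel, with the replicate number as the symbol and the mean ± SD (n = 4 litters) as a line and bar. Each panel has its own y range. IUGR replicate 1 is at or near the top for most genes, such as Ndrg1 (13.26) and Egln3 (11.95), and sham replicate 4 is lowest for Slc2a1 (11.46), Ldha (13.15) and Gbe1 (8.65).

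Genes that control the flow through glycolysis were higher in 4 of 4 cases, with a median difference of 0.81, against 0.35 for the enzymes, a contrast that was not tested. Pdk1, the kinase that closes pyruvate dehydrogenase and so keeps pyruvate out of the mitochondria, was 11.20, 10.38, 10.72 and 10.76 in IUGR litters, against 9.95, 9.94, 9.89 and 9.49 in sham litters. The lowest IUGR litter was 0.43 above the highest sham litter, and the mean difference was 0.95 ± 0.18 (SE; 1.93-fold, limma adjusted p = 0.0724). Pfkfb3, which makes the activator of phosphofructokinase, was 8.92, 8.30, 8.72 and 8.70 in IUGR litters, against 8.35, 7.81, 8.07 and 7.71 in sham litters. A single pair of litters overlapped, with a difference of 0.67 ± 0.18. Pfkfb4, a related enzyme, was 9.13, 8.78, 9.06 and 8.83 in IUGR litters, against 8.97, 8.68, 8.41 and 8.67 in sham litters (0.27 ± 0.14), and its difference was 0.04 after quantile normalization and 0.18 without sham replicate 3.

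Fbp1, fructose bisphosphatase, works against glycolysis and belongs to gluconeogenesis in liver and kidney. It was 8.53, 8.34, 8.61 and 9.15 in IUGR litters, against 7.26, 7.36, 7.67 and 8.00 in sham litters. No litters overlapped, and the difference was 1.08 ± 0.22 (SE; 2.12-fold, limma adjusted p = 0.0743). Its highest litter was IUGR replicate 4, which also had the highest liver list mean (12.82), while in sham litters Fbp1 was highest in replicate 4, where the liver list mean was lowest (9.05). Without sham replicate 4 its difference was 1.23 (limma adjusted p = 0.0487) and without sham replicate 1 it was 0.98 (limma adjusted p = 0.0305). With any other litter left out the limma adjusted p was 0.0792 to 0.208.

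The HIF targets outside glycolysis were higher in 11 of 14 cases, with a median difference of 0.33, and in 8 of 14 after median centring. Their median was 0.16 after quantile normalization, 0.18 without IUGR replicate 1 and 0.19 without sham replicate 2. Ero1a, an oxidase of the endoplasmic reticulum that helps form disulphide bonds, was 11.78, 11.46, 11.73 and 11.64 in IUGR litters, against 11.28, 10.97, 11.14 and 11.11 in sham litters. The litters within each group lay close together and the groups did not overlap, with a difference of 0.53 ± 0.10 (SE; 1.44-fold, limma adjusted p = 0.0725). Ndrg1, a stress-responsive gene much used as a hypoxia marker, was 13.26, 12.26, 12.92 and 12.67 in IUGR litters, against 11.52, 12.01, 11.72 and 12.05 in sham litters. Its difference was 0.95 ± 0.22 (1.93-fold, limma adjusted p = 0.0929), with IUGR replicate 2 next to the sham litters.

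Gbe1, the glycogen branching enzyme, had the largest difference of the 39 genes. It was 10.66, 10.20, 10.66 and 10.90 in IUGR litters, against 10.01, 9.55, 9.47 and 8.65 in sham litters. There was no overlap, and the difference of 1.19 ± 0.28 (SE; 2.28-fold, limma adjusted p = 0.0957) was 0.93 without sham replicate 4. The highest and lowest litters for Gbe1, IUGR replicate 4 and sham replicate 4, were also those with the highest and lowest liver list means. Sham replicate 4 was, however, the lowest litter for 54.9% of genes with a mean above 10. The part of liver cells in the Gbe1 values was not tested.

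Bnip3 and Bnip3l, related mitochondrial proteins that promote mitophagy, lay on opposite sides of 0. Bnip3 was 12.86, 11.88, 12.45 and 12.48 in IUGR litters, against 11.87, 11.82, 11.72 and 11.50 in sham litters, a difference of 0.69 ± 0.20 (SE) in which IUGR replicate 2 exceeded the highest sham litter by 0.01. Bnip3l, which also clears mitochondria from maturing red cells, was 12.30, 12.43, 12.36 and 12.14 in IUGR litters, against 12.49, 12.47, 12.49 and 12.61 in sham litters, a small difference of -0.21 ± 0.09 without overlap. The erythroid list mean was lower in IUGR as well, although sham replicate 4, highest for Bnip3l, had the lowest erythroid mean of the sham litters (10.71). The per-litter gap between Bnip3 and Bnip3l differed between the groups by 0.90 (exact permutation p = 0.0286, adjusted p = 0.129 over the 9 pairs). With Bnip3 wholly above and Bnip3l wholly below, the gap had to separate the groups, so this p was fixed in advance. With 4 litters against 4, 0.0286 is the smallest p this test can give.

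Mxi1, an antagonist of Myc, was 10.84, 10.57, 10.80 and 10.43 in IUGR litters, against 10.54, 10.01, 10.10 and 9.55 in sham litters (0.61 ± 0.20). Kdm3a, a histone demethylase, was 10.42, 9.83, 10.29 and 9.79 in IUGR litters, against 9.99, 9.40, 9.24 and 9.66 in sham litters (0.51 ± 0.21). In both, sham replicate 1 lay among the IUGR litters. The collagen-modifying enzymes did not lie on one side: P4ha1 differed by 0.32 ± 0.21 and P4ha2 by 0.35 ± 0.25, while Plod2 differed by -0.23 ± 0.32. Without IUGR replicate 1 the difference was 0.16 for P4ha1 and 0.21 for P4ha2, and without sham replicate 2 it was 0.15 for P4ha2. The mesenchyme list mean, from 10.47 to 11.45 in IUGR and from 11.41 to 12.08 in sham litters, was the lower in IUGR, and its part in these values was not tested. Vldlr, a lipoprotein receptor, differed by -0.20 ± 0.44 and ranged from 8.47 to 10.69 within the IUGR litters. Adm, the vasodilator peptide adrenomedullin (0.09 ± 0.19), Ankrd37 (0.07 ± 0.13) and Higd1a, a mitochondrial protein (0.12 ± 0.16), had overlapping groups, with differences smaller than their SE. That of Higd1a ran from 0.02 to 0.22 with 1 litter left out. Higd1a and Ankrd37 were dim, with means of 7.29 and 6.93, at the 31.0 and 26.3 percentile of all genes, where differences can be compressed.

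Of the other 7 related pairs tested, none had an exact permutation p under 0.05. The gap between Pfkfb3 and Pfkfb4 differed by 0.41 (exact permutation p = 0.0571, adjusted p = 0.171), Slc2a1 and Slc2a3 by 0.55 (exact permutation p = 0.114), Aldoc and Aldoa by 0.41 (exact permutation p = 0.114) and Egln3 and Egln1 by 0.24 (exact permutation p = 0.600). Pfkp and Pfkl (0.03), P4ha2 and P4ha1 (0.03) and Epas1 and Hif1a (-0.07) differed by less than the spread between litters.

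Set against each other, the glycolytic enzymes and the non-glycolytic HIF targets differed between the groups by similar amounts. The mean of the 13 enzymes was 11.99, 11.56, 11.77 and 11.57 in IUGR litters, against 11.52, 11.38, 11.37 and 11.20 in sham litters. The mean of the 14 targets was 10.57, 10.15, 10.46 and 10.12 in IUGR litters, against 10.16, 9.88, 9.96 and 9.93 in sham litters. The enzyme means did not overlap between the groups, but sham replicate 1 came within 0.04 of IUGR replicate 2, while for the targets sham replicate 1 lay above IUGR replicates 2 and 4. Enzyme mean minus target mean was 1.40 ± 0.06 in IUGR and 1.38 ± 0.09 in sham litters (SD, n = 4 each), a change of 0.02 that is smaller than the spread and turned negative under several alternatives. Single enzymes differed by -0.27 to 0.76 and single targets by -0.23 to 1.19.

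**Figure D3:**
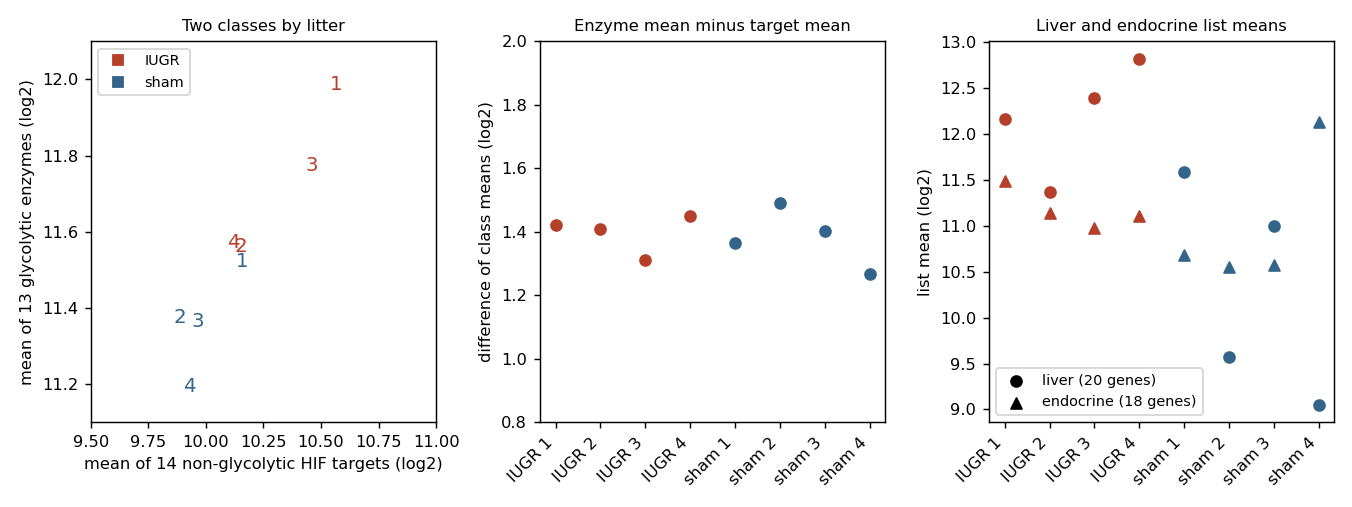
Left, the mean of the 13 glycolytic enzymes (y) against the mean of the 14 non-glycolytic HIF targets (x) in each litter, in log2 units, with the replicate number as the symbol and colour for the group. Middle, the difference of the means per litter (1.27 to 1.49), and right, the list means of liver and hormone cell markers per litter, where IUGR replicate 4 has the highest liver mean (12.82) and sham replicate 4 the lowest (9.05).

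Within the IUGR group the litters were not alike. IUGR replicate 1 was the highest of all 8 litters for 27 of the 39 genes, against 9.09% of all genes and 10.8% of those with a mean above 10, a count made after the values were seen. That was so for 11 of 13 enzymes and 9 of 14 other HIF targets. IUGR replicate 4 was highest for 5 genes, namely Vhl, Pgk1, Fbp1, Higd1a and Gbe1, and IUGR replicate 3 for Slc16a3 and Vldlr, while IUGR replicate 2 was highest for none. Hormone cell markers were also highest in replicate 1 among the IUGR litters, in 18 of 18 genes (22.6% of all genes), and its erythroid (9.84) and macrophage (8.87) list means were the lowest of the 8. Without IUGR replicate 1 the median difference was 0.33 for the enzymes and 0.18 for the other HIF targets. Among sham litters, replicate 4 was the lowest of all 8 for 18 of the 39 genes, where 30.8% of all genes and 54.9% of genes with a mean above 10 had their lowest value there. The count for the enzymes was 9 of 13.

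**Figure D4:**
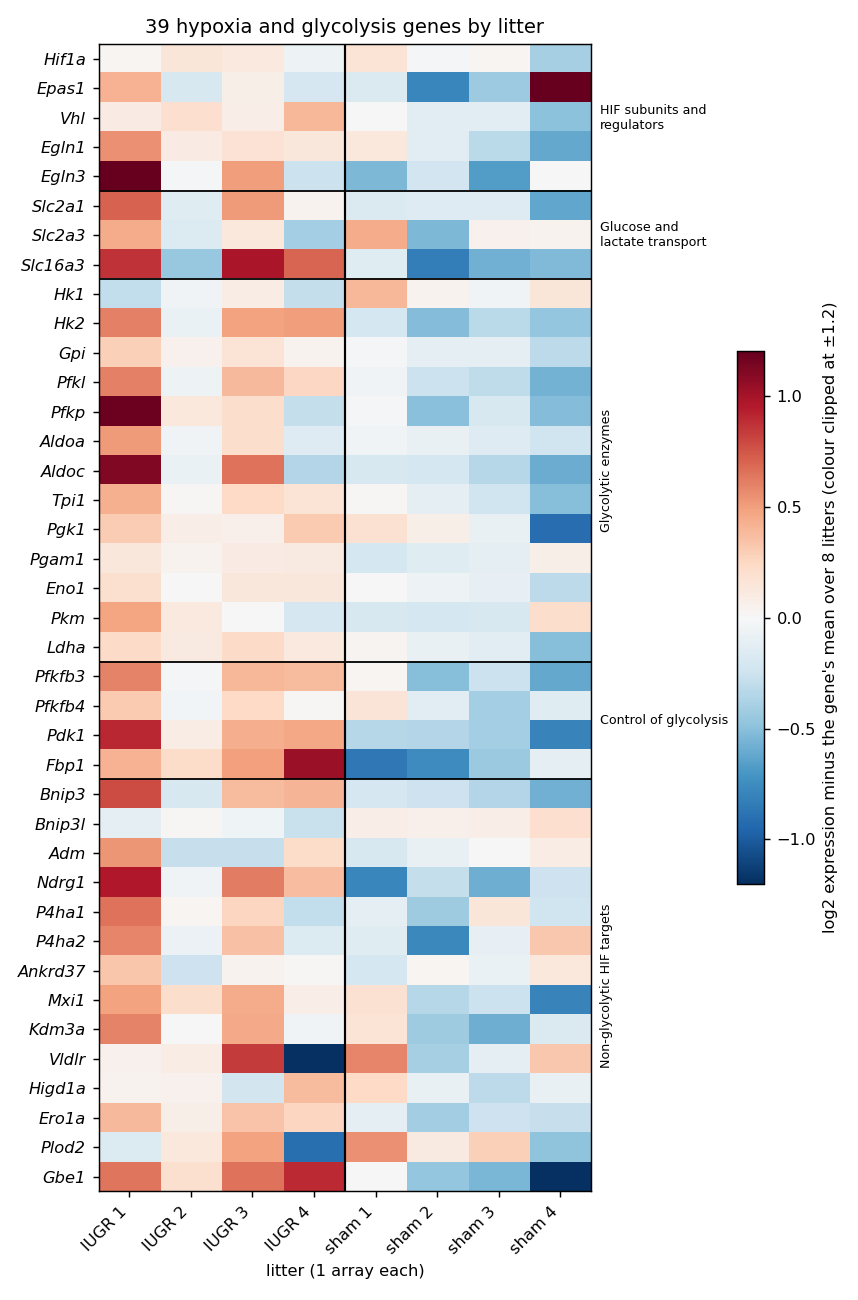
Log2 expression of each of the 39 genes (rows, grouped by role) in each litter (columns, IUGR left of the line and sham right), minus the gene's mean over the 8 litters. Colour is clipped at 1.2 on either side; IUGR replicate 1 is above the mean for most rows, and sham replicate 4 below it for most glycolytic enzymes but above it for Epas1, Pkm and Bnip3l.

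Other genes of these pathways were described by their counts. Of 33 further genes measured of 37 listed for glucose and glycogen metabolism, 25 were higher, with a median of 0.18. None passed over all genes by limma, and 8 were higher and 0 lower at an unadjusted p under 0.05. Over all genes 55.1% had a higher mean, 15.4% were higher at that cut and 10.7% lower. The 4 with the smallest p were Pygl, liver glycogen phosphorylase (1.34 ± 0.26), Pgm1, phosphoglucomutase (1.03 ± 0.24), Slc16a7, a monocarboxylate transporter (1.02 ± 0.28), and Pdk4, a further pyruvate dehydrogenase kinase (0.92 ± 0.26). Pygl, Pgm1, Slc16a7 and Fbp1 shared IUGR replicate 4 as their highest litter, as did Gbe1 and the liver list. Pdha1, Mpc1, Mpc2 and Tigar, also of the 33 genes, were highest there too. The share of all genes highest in that litter was not counted. Pdk4 was highest in IUGR replicate 1, and the part of liver cells in the values of any of these genes was not tested. Gapdh differed by 0.05 ± 0.07, at 13.87 in IUGR and 13.82 in sham islets, close to the top of the array and with 16 probe sets. Slc2a2, the glucose transporter of beta cells and liver, differed by 0.82 ± 0.51.

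Of 42 further HIF pathway genes measured of 49 listed, 28 were higher, with a median of 0.11. By limma 0 passed over all genes, and 11 were higher and 0 lower at an unadjusted p under 0.05. Over all genes 55.1% had a higher mean, 15.4% were higher at that cut and 10.7% lower. All IUGR litters lay above all sham litters for 8 of the 42 and below them for 1, against 10% and 5.45% of all genes. Smallest p-values were those of Fam162a (0.63 ± 0.16), Insig2, a brake on sterol synthesis (0.59 ± 0.17), Jmjd6 (0.39 ± 0.11) and Kdm4b, a histone demethylase (0.38 ± 0.11), each without overlap between groups. The textbook HIF targets Vegfa and Car9 did not show a higher mean. Vegfa, the endothelial growth factor, was 11.87, 11.58, 12.11 and 11.50 in IUGR litters, against 11.92, 11.68, 11.58 and 11.93 in sham litters, a difference of -0.01 ± 0.15 (SE). Car9, a carbonic anhydrase induced by hypoxia in many tissues, was 8.15, 8.38, 8.28 and 7.61 in IUGR litters, against 8.96, 8.63, 8.75 and 7.90 in sham litters, a difference of -0.46 ± 0.25.

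With 1 litter left out, members passed the threshold in 3 of 8 cases. Without sham replicate 1, the sham litter of wide signal range, 11 members passed as higher (Egln1, Hk2, Pfkl, Tpi1, Pfkfb3, Pdk1, Fbp1, Ndrg1, Mxi1, Ero1a and Gbe1), when 9.29% of all genes passed as higher and 9.59% as lower. Without IUGR replicate 2, Hk2 and Slc16a3 passed as higher, when 0.29% of all genes passed as higher and 0.00689% as lower. Without sham replicate 4, Fbp1 alone passed, when 1.06% of all genes passed as higher and 0.0207% as lower. Without the 30% dimmest genes no member passed, when 0.561% passed as higher and 0.0197% as lower. Of the 38 members kept, 19 were higher at an unadjusted limma p under 0.05, against 19.5% of the genes kept. All told 12 of 39 members (30.8%) had no overlap in either direction, against 15.5% of all genes. Without sham replicate 1 it was 21 members (53.8%), against 39.2% of all genes, and without IUGR replicate 2 it was 19 (48.7%), against 19.1%. Array weights gave 23 members higher and 0 lower, when 26.4% of all genes passed as higher and 17.5% as lower.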

How the data were processed

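RNA from pooled fetal islets of 8 litters was biotin-labelled with a GeneChip whole-transcript kit and read on 1-colour arrays, per the labels. The deposited values are on a log2 scale; the authors made them with RMA, per the submitters' processing notes, which name no software version. There were 29214 probe sets, of which the platform annotation gave 15310 exactly 1 gene, 323 several and 13581 none; 15279 matched a current RefSeq gene identifier. The brightest probe set per gene left 14506 genes (527 had several).

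The values entered limma 3.58.1 as deposited, under R 4.3.3 as a model of 2 groups with moderated variances and no covariate, two-sided, with Benjamini-Hochberg adjustment over all genes and a threshold of 0.05. Gaps within pairs of related genes were compared by an exact two-sided permutation test over 70 arrangements, with Benjamini-Hochberg adjustment over 9 pairs. Tested on simulated data for this comparison and all 14506 genes (10 sets, each with 200 altered genes), limma found 78.8% of 2-fold and 96.9% of 4-fold alterations. Whether these shares hold for the deposited arrays was not tested. On those arrays the members that differed by over 2-fold, Gbe1 (2.28-fold), Fbp1 (2.12-fold) and Slc16a3 (2.06-fold), did not pass the threshold.

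Full litter values were given for the 6 enzymes and 6 other HIF targets of smallest p and for all regulators, transporters and control genes. The members, gene lists and tests were chosen with earlier results of these data known. Alternatives were other normalizations, a filter on the 30% dimmest genes, other priors and weights, the replicate number as a block, other handling of probe sets, and leaving out each litter. Cyclic loess, the medians without bright enzymes and overlap counts without a litter were added after the data were seen. The permutation tests of gaps within pairs of related genes were not among the tests set out beforehand. Array data have no read depth; the number of arrays limits precision. Figures used matplotlib 3.10.9.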

Additional observations from a re-analysis of the deposited data

Results flagged for a closer look

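In 5 of the 78 sets of 4 litters (39 genes, 2 groups), 1 litter lay far from the other 3, by a test that chance meets in about 1 of 20 sets. The count of 5 is thus close to what chance alone would give, and the share over all genes was not counted. Egln1 was 10.27 in IUGR replicate 1, against 9.82 to 9.89 in the other IUGR litters. The other 4 were all sham replicate 4: Slc2a1 was 11.46 there, against 11.91 to 11.93 in the other sham litters, Pdk1 was 9.49 against 9.89 to 9.95, Pkm was 12.39 against 11.97 to 12.00, and Bnip3l was 12.61 against 12.47 to 12.49. That litter had the highest hormone cell list mean (12.13) and the lowest liver list mean (9.05) of the 8. Without it the differences were 0.44 for Slc2a1, 0.84 for Pdk1, 0.30 for Pkm and -0.18 for Bnip3l. Sham replicate 4 was the lowest of the 8 litters for 30.8% of all genes. What, if anything, sets it apart in the members was not tested.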

How the results depend on the processing

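Over all genes 36 passed the threshold. By limma it was 0 for cyclic loess, quantile normalization, the replicate block and all probe sets together (with 3290, 3305, 2715 and 4044 genes at an unadjusted p under 0.05), 1 after median centring, 59 without the dimmest genes, 6358 with array weights, and 0 to 2738 with 1 litter left out. Of the members 0 passed, with 21 at an unadjusted limma p under 0.05. With array weights 23 passed, and with 1 litter left out 0 to 11. Of the 39 members, 12 (30.8%) had no overlap between groups, against 15.5% of all genes. With 1 litter left out it was 12 to 21, the 21 (53.8%) without sham replicate 1, against 39.2% of all genes. The enzyme median of 0.35 was 0.11 after median centring, and 0.25 to 0.41 with 1 litter left out. The median of the other HIF targets, 0.33, was 0.10 after median centring, and 0.18 to 0.47 with 1 litter left out. The change in enzyme mean minus target mean, 0.02, was -0.0044 without the dimmest genes, -0.025 with array weights and -0.0213 to 0.0529 with 1 litter left out.

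Of single genes, the sign turned after median centring for Hif1a (-0.11), Epas1 (-0.19), Pgam1 (-0.0357), Eno1 (-0.0016), Pkm (-0.0353), Adm (-0.14), Ankrd37 (-0.16) and Higd1a (-0.11); after quantile normalization for Epas1 (-0.16) and Adm (-0.15); after cyclic loess for Epas1 (-0.15) and Adm (-0.0815); and with array weights for Slc2a3 (0.0419), Adm (-0.0484) and Vldlr (0.29). With 1 litter left out Epas1 lay between -0.21 and 0.49, Slc2a3 between -0.18 and 0.15, Adm between -0.0674 and 0.20, Ankrd37 between -0.0272 and 0.16, Vldlr between -0.52 and 0.23 and Plod2 between -0.43 and 0.0329. None of these genes passed the threshold on the 8 arrays as deposited, and the cause was not tested, beyond the shift of all genes that median centring brings. Of the members higher or lower at an unadjusted p under 0.05, 95.2% were higher, against 88.9% after quantile normalization and 81.8% after median centring. The litters are of different dams. Deviations of same-numbered litters correlated at -0.43, 0.10, -0.12 and -0.13, which gave no sign of pairing by number. Such correlations cannot exclude a pairing, as other differences between litters also enter them. The replicate block left 0 members past the threshold. In this balanced design the block leaves every difference as it was, so no sign could turn.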
